A study of Mus musculus with 6 samples.

Results

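The comparison of TGF-β1 with BI6727 against TGF-β1 with DMSO covered 4 of the 6 RNA-seq libraries, namely 2 replicates in each group, and the 17936 of 54752 annotated genes that held at least 10 counts in total over the 6 libraries. All libraries came from NIH/3T3, an established line of mouse embryonic fibroblasts, after 72 h in culture. The DMSO group received TGF-β1 at 1 ng/ml together with DMSO, the solvent of the inhibitor. The BI6727 group received TGF-β1 at 1 ng/ml together with BI6727 at 5 μM. The remaining 2 libraries had vehicle, given as PBS, and served only to steady the estimate of spread and to give a level without TGF-β1. No library had DMSO or BI6727 without TGF-β1. The question was which transcripts differed when the kinase was inhibited during the TGF-β1 response. The labels do not say whether replicates were separate cultures, so p-values measure the spread between these libraries, which may be technical. P-values against 1 DMSO library alone take their spread from the vehicle and BI6727 pairs only.

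BI6727 inhibits polo-like kinase 1 (PLK1), which drives entry into mitosis, assembly of the spindle and cytokinesis. TGF-β1 turns cultured fibroblasts into contractile, matrix-producing myofibroblasts, for which smooth muscle α-actin, encoded by Acta2, is the standard marker. Fibroblasts also release chemokines and carry an interferon response, in which secreted interferon or sensed nucleic acid switches on a shared group of antiviral genes.

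The DMSO libraries differed from each other with gene length, so each gene was read against either of them separately. Library totals lay between 18362378 and 24452153 counts, and values below are CPM, counts normalized to library size with TMM, edgeR's correction for composition. Among 12934 genes with a mean of at least 1 CPM, the shortest decile (median 603 bases of exon) had a median log2 ratio of -0.43 between DMSO replicate 1 and DMSO replicate 2. The longest decile (median 12044 bases) had 0.45. Against DMSO replicate 1, the mean of the BI6727 libraries ran the other way, from 0.16 in the shortest decile to -0.10 in the longest. Against DMSO replicate 2 it ran from -0.27 to 0.33. The BI6727 pair itself ran only from 0.07 to -0.05. Within a pair of replicates, the log2 difference had an SD over genes of 0.44 for DMSO, 0.31 for vehicle and 0.28 for BI6727. Calls made after removal of these trends are therefore given beside the others, and the part of length in any single gene was not tested.

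**Figure D1:**
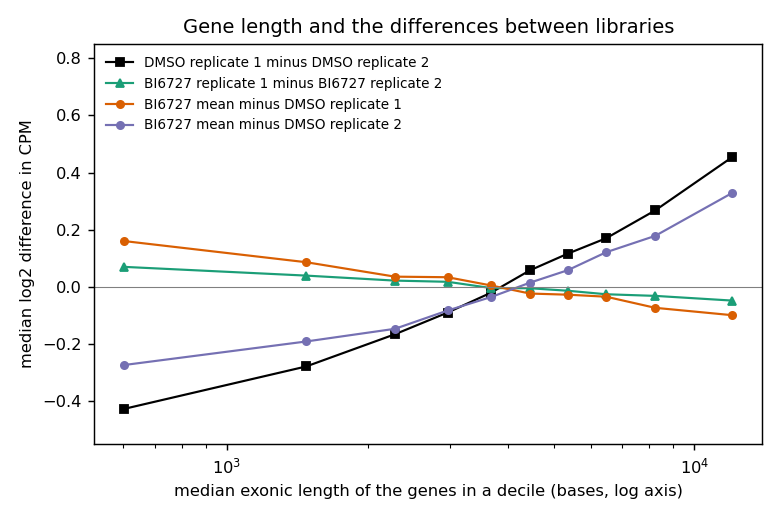
Median log2 ratio (y axis) in deciles of genes ordered by exonic length (x axis, bases, log scale), for the DMSO pair, the BI6727 pair, and the BI6727 mean against each DMSO library. The DMSO pair runs from -0.43 to 0.45 with length, and the BI6727 mean slopes in opposite directions against DMSO replicate 1 and DMSO replicate 2.

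By the quasi-likelihood test of edgeR on both BI6727 and both DMSO libraries, 2 genes were lower with BI6727 (0.0112% of genes tested) and 0 were higher (0%) at a Benjamini-Hochberg adjusted p below 0.01 and a fold change above 2. The 2 were Ccl5 and Pde1b. Neither was called without BI6727 replicate 1, without BI6727 replicate 2, with only the 4 libraries or with the replicate number as a block, where the adjusted p from edgeR was 0.0139 for both. Without DMSO replicate 1 or 2, the count of lower genes was 36 or 37. At an unadjusted p below 0.05, the same test had 754 genes lower (4.20%) and 424 higher (2.36%). DESeq2 called 15 genes lower (0.0836%), which included both, and 0 higher (0%). With offsets that removed each library's trend on gene length, edgeR called 13 lower (0.0725%) and 0 higher (0%), of which 12 were shared with DESeq2. Among genes with higher values, the smallest adjusted p was 0.32 from edgeR and 0.0189 from DESeq2. With 2 libraries a group, an exact permutation test reaches no p under 0.333, so no gene was tested that way.

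Groups that do not overlap were common in both directions. Both BI6727 libraries lay below both DMSO libraries in 3128 genes (17.4%) and above both in 3078 (17.2%). A gap of over 1.5-fold between the nearest libraries was rare among genes with a mean of at least 1 CPM, with 103 genes lower (0.796%) and 39 higher (0.302%). All 15 genes called by DESeq2 were among the genes with such a gap. The gap and the call rest on the same BI6727 and DMSO values, so this is no separate support for the calls.

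Tested against 1 DMSO library at a time, 11 genes were called lower with BI6727 against each of them (0.0613% of genes tested) and 0 higher (0%). They included the chemokines Ccl5, Cxcl10, Cxcl5 and Cx3cl1, the interferon-stimulated genes Ifit1 and Isg15, and Pde1b, Ptn, Postn and Prl2c3. Against DMSO replicate 1 alone, 37 genes were lower (0.206%) and 4 higher (0.0223%). Against DMSO replicate 2 alone, 36 were lower (0.201%) and 65 higher (0.362%). The 65 higher genes had a median exonic length of 12842 bases and the 4 had 988 bases, beside 4061.5 bases over genes with at least 1 CPM. The 11 genes had a median of 2656 bases. Both fits share the BI6727 libraries, and the lone DMSO library was assumed to vary like the vehicle and BI6727 pairs. The DMSO pair varied more than that, with an SD of the log2 difference of 0.44, beside 0.31 for vehicle and 0.28 for BI6727. P-values and calls against 1 DMSO library may therefore be too favorable. With DESeq2 for the same comparisons, or with the study's filter of at least 10 CPM in more than 3 samples, 7 of the 11 were called, and without BI6727 replicate 1 or replicate 2 there were 15 and 16 genes lower, of which 9 and 8 were among the 11. On the higher side, length offsets gave 1 gene against each DMSO library, Hist1h4i, and leaving out BI6727 replicate 1 gave 4. Cxcl5, Ifit1 and Pde1b were called under all 6 settings tried.

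**Figure D2:**
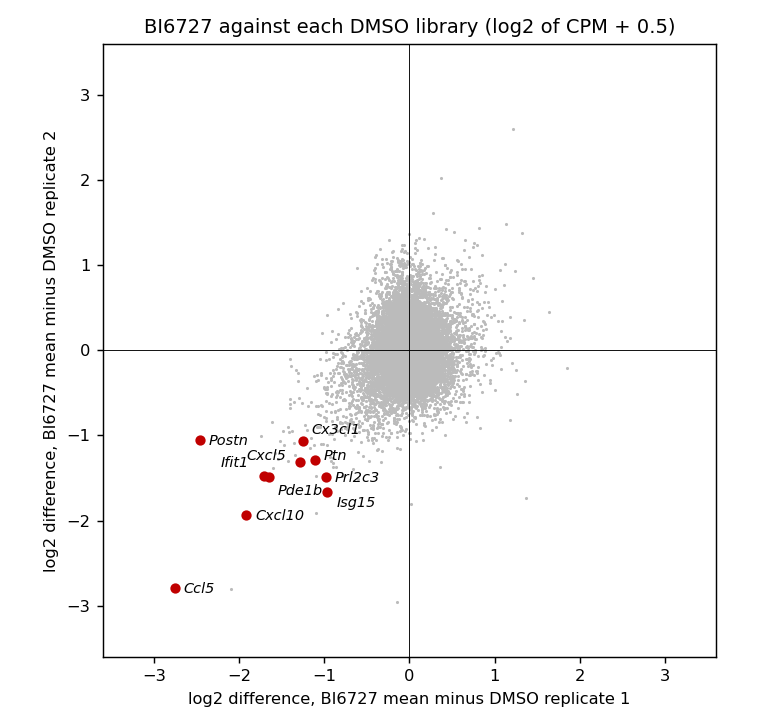
Each point is 1 of 12934 genes, by its log2 ratio of the BI6727 mean to DMSO replicate 1 (x axis) and to DMSO replicate 2 (y axis), with 0.5 CPM added to each value and 1 gene outside the axes. Both axes share the BI6727 values; 10 genes called lower against each DMSO library are marked and lie far down on both axes, and no gene was called higher on both.

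Among transcripts of chemokines, the secreted proteins that draw leukocytes, 4 were called lower against each DMSO library. Ccl5 (ENSMUSG00000035042.2, mm10 chr11:83525778-83530518, minus strand), which attracts T cells and monocytes, had 12.2 and 12.5 CPM with DMSO and 1.76 and 1.06 CPM with BI6727. Both BI6727 libraries were also below the vehicle libraries, at 2.87 and 4.03 CPM. Ccl5 fell from 12.3 ± 0.227 to 1.41 ± 0.492 CPM (SD, n = 2), a log2 fold change of -3.15 (standard error, SE, 0.29), with an adjusted p of 0.00888 from edgeR (quasi-likelihood test, Benjamini-Hochberg adjustment). The DMSO libraries were 8.64-fold and 8.87-fold above the BI6727 mean.

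Cxcl10 (chr5:92346638-92348889), an interferon-induced chemokine for activated T cells, had 6.67 and 6.75 CPM with DMSO and 1.10 and 1.76 CPM with BI6727. Its vehicle libraries, at 4.08 and 4.70 CPM, lay between the groups. The log2 fold change was -2.20 (SE 0.28), with an adjusted p from edgeR of 0.0526 on both DMSO libraries and of 0.000428 and 8.93e-05 against DMSO replicates 1 and 2 alone. Cxcl5 (chr5:90759360-90761624), a neutrophil chemokine, stood at 29.4 and 29.9 CPM with DMSO and 11.9 and 11.7 CPM with BI6727. Its vehicle libraries held 502 and 356 CPM, so the DMSO group was already far below vehicle and the BI6727 group lower still. Cx3cl1 (chr8:94772009-94782427), a membrane-bound chemokine, had 13.0 and 11.4 CPM with DMSO and 4.40 and 6.09 CPM with BI6727.

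The chemokine and cytokine list had 29 genes, of which 21 were tested. In 10 of them the unadjusted p was below 0.05 on the lower side, beside 4.20% of all genes, and in 1, Csf1, on the higher side. The groups were apart with BI6727 lower in 11 of the 21 and higher in 1, beside 17.4% and 17.2% of all genes. The median log2 fold change over the 21 was -0.69, or -0.59 against DMSO replicate 1 and -0.70 against DMSO replicate 2, beside 0.00, 0.00 and -0.01 over all genes tested. Ccl2, the monocyte chemokine and the most abundant member, was outside the naming rule and was looked up for its level after values were seen. It had 314 and 391 CPM with DMSO and 217 and 201 CPM with BI6727. Csf1, the macrophage growth factor, had 242 CPM in both DMSO libraries and 288 and 306 CPM with BI6727, the opposite order. Il11 and Lif, a pair of IL-6 family cytokines, overlapped between groups.

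Interferon-stimulated genes formed the other list with a low median. Ifit1 (chr19:34640871-34650009), which binds viral RNA, had 44.1 and 37.4 CPM with DMSO and 12.1 and 14.3 CPM with BI6727. The vehicle libraries held 14.3 and 20.7 CPM, so the BI6727 libraries were below vehicle and the DMSO libraries above it. The log2 fold change of Ifit1 was -1.63 (SE 0.20, adjusted p = 0.0526 from edgeR), and the adjusted p was 2.71e-06 and 1.06e-05 against DMSO replicates 1 and 2 alone. Isg15 (chr4:156199424-156200818), a ubiquitin-like protein, had 27.5 and 44.9 CPM with DMSO and 14.1 and 13.6 CPM with BI6727. Its DMSO libraries differed from each other by more than Ifit1's did, yet both BI6727 libraries lay below both and above vehicle, at 6.95 and 7.47 CPM.

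Scarcer members had the same order. Oasl2, an oligoadenylate synthetase-like protein, had 3.76 and 3.16 CPM with DMSO and 0.824 and 0.980 CPM with BI6727. Irf7, the transcription factor that amplifies the response, had 1.29 and 1.37 CPM with DMSO and 0.330 and 0.367 CPM with BI6727. Rsad2, the antiviral enzyme viperin, had 13 and 44 counts with DMSO and 2 and 0 counts with BI6727. None of these 3 passed the adjusted threshold on both DMSO libraries, Rsad2 passed it against DMSO replicate 2 alone (adjusted p = 0.00268 from edgeR), and at such levels counting error is large.

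Of 54 listed interferon-stimulated genes, 51 were tested, and the unadjusted p was below 0.05 on the lower side in 24 and on the higher side in 0, beside 4.20% and 2.36% of all genes. The groups were apart with BI6727 lower in 32 of 51 and higher in 1, beside 17.4% and 17.2% of all genes. Of the 35 members with a mean of at least 1 CPM, 24 were apart lower and 0 higher, beside 17.6% and 17.2% of all such genes, and 9 were lower by over 1.5-fold, beside 0.796%. The median log2 fold change over the list was -0.60, or -0.56 and -0.54 against DMSO replicates 1 and 2. The most abundant members, looked up for their level after values were seen, differed less. H2-D1, a class I antigen-presenting molecule, had 670 and 781 CPM with DMSO and 734 and 715 CPM with BI6727, and the groups overlapped. B2m, its partner chain, had 714 and 857 CPM with DMSO and 652 and 693 CPM with BI6727, a narrow separation with a log2 fold change of -0.22.

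Genes that sense nucleic acids and carry the interferon signal did not share this. Of 12 tested, the unadjusted p was below 0.05 in 0, the groups were apart lower in 0 and higher in 4 (17.4% and 17.2% of all genes), and the median log2 fold change was 0.07. On the NF-κB list, the other main route to chemokine transcription, 20 genes were tested, and 5 were apart lower and 4 higher. Of the 20, 0 had an unadjusted p below 0.05 on the higher side and 1 on the lower, beside 2.36% and 4.20% of all genes. That member, Vcam1, a leukocyte adhesion receptor, had 10.9 and 12.2 CPM with DMSO and 7.58 and 6.82 CPM with BI6727. Markers of leukocytes were scarce in both groups, where the 6 of 8 markers that were tested summed to between 22.5 and 24.6 CPM in all 4 libraries. Most of that sum was Cd14, with 382 and 391 counts with DMSO and 336 and 411 counts with BI6727. Of the 6, 1 was apart lower and 3 higher, beside 17.4% and 17.2% of all genes. Ptprc, the lower one, had 9 and 2 counts with DMSO and 0 in both BI6727 libraries. Lyz2, 1 of the 3 higher, had 2 and 4 counts with DMSO and 6 and 12 counts with BI6727. Adgre1 was at 0 throughout. The 10 fibroblast markers summed to 8073 and 6984 CPM with DMSO and to 6450.2 and 6352 CPM with BI6727. In bulk RNA, fewer cells of a type and less RNA per cell cannot be told apart.

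The upstream sequences of Cxcl10, Ifit1 and Isg15 are shown because these 3 genes were called lower against each DMSO library and have the paired GAAA motif, the core of the interferon-stimulated response element, in the 250 bases before their start. The sequences are from RefSeq (GRCm38.p6, the assembly of mm10) and run 5′ to 3′ along the gene's strand. Capitals mark GAAANNGAAA, where N is any base, on either strand, so that in Ifit1 the capitals show its reverse complement.
Cxcl10: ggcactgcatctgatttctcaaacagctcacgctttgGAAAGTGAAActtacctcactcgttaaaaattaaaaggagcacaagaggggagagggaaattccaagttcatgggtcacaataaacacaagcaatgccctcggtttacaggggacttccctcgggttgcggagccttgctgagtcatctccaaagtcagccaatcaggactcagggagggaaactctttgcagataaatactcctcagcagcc
Ifit1: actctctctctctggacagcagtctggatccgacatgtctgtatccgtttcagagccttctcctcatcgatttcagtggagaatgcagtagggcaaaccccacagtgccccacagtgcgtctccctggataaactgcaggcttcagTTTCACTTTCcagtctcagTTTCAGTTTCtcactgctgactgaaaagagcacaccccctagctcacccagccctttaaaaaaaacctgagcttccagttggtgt
Isg15: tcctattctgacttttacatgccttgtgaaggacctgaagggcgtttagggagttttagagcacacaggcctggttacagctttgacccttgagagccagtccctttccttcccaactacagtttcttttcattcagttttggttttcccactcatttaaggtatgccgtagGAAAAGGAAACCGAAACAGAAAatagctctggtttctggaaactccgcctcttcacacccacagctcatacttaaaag
The Cxcl10 window spans chr5:92348890-92349139 (minus strand), with 1 match 204 to 213 bases upstream of the start. This window also holds 3 matches to the NF-κB consensus, of which 2 overlap each other and none overlaps the paired GAAA match. The Ifit1 window spans chr19:34640639-34640888 (plus strand), with 2 matches between 76 and 104 bases upstream. The Isg15 window spans chr4:156200819-156201068 (minus strand), with 3 overlapping matches between 57 and 78 bases upstream. Of 32851 promoters in the same table, 978 (2.98%) hold the paired GAAA motif, 2382 (7.25%) the NF-κB consensus and 54 (0.164%) both. Of the 11 genes, 8 had a promoter in the table, and 4 of these had the paired GAAA motif in at least 1 promoter, namely Cxcl10, Ifit1, Isg15 and Pde1b. Among the interferon-stimulated genes tested, 40 of 51 had a promoter and 16 had the motif, while 14 of the 21 chemokines and cytokines had a promoter and only Cxcl10 had it. These counts are of genes with the motif in any promoter, whereas the 2.98% is a share of promoters, so they are not alike. The 8, 40 and 14 genes had 11, 46 and 16 promoters. Pde1b had the motif only in its promoter window at chr15:103506876-103507125. A match is a description of the letters and not evidence of binding.

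Pde1b (ENSMUSG00000022489.6, chr15:103503034-103530052, plus strand), a calcium- and calmodulin-dependent phosphodiesterase that breaks down cyclic nucleotides, was the other gene called on both DMSO libraries. It had 49.4 and 44.1 CPM with DMSO and 15.7 and 15.1 CPM with BI6727, beside 9.82 and 11.4 CPM with vehicle. Pde1b fell from 46.8 ± 3.77 to 15.4 ± 0.386 CPM (SD, n = 2), a log2 fold change of -1.60 (SE 0.15, adjusted p = 0.00888 from edgeR). The BI6727 libraries thus lay between vehicle and DMSO. Of the 11 cyclic nucleotide phosphodiesterases tested, Pde1b was the only one with an unadjusted p below 0.05 or with groups apart before length offsets. With length offsets, 4 of the 11 were apart lower and 0 higher, beside 3518 and 3296 of all 17936 genes tested.

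A growth factor, a matrix protein and a prolactin-family gene were also called against each DMSO library. Ptn (chr6:36714929-36810220), the heparin-binding growth factor pleiotrophin, had 29.7 and 33.7 CPM with DMSO and 15.6 and 11.6 CPM with BI6727, against 391 and 364 CPM with vehicle. The groups were apart, and the BI6727 libraries were farther from vehicle than the DMSO libraries were.

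Postn (chr3:54361109-54391037), the matrix protein periostin, had 70.6 and 26.2 CPM with DMSO and 13.8 and 11.1 CPM with BI6727, beside 8.76 and 5.81 CPM with vehicle. The DMSO libraries were 5.65-fold and 2.10-fold above the BI6727 mean, and the adjusted p on both DMSO libraries was 0.357 from edgeR and 0.00925 with length offsets, by which Postn was called. Prl2c3 (chr13:12790816-12800079), a prolactin-family growth factor known as proliferin, had 568 and 804 CPM with DMSO and 266 and 309 CPM with BI6727. Since 60.0% of its 50-base windows occur in transcripts of other genes, its reads may be split among copies and its values are uncertain.

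Among genes called by DESeq2 but not against each DMSO library, Notch4 (chr17:34564268-34588503), a Notch receptor, had 60.9 and 44.0 CPM with DMSO and 21.9 and 23.1 CPM with BI6727, beside 3.17 and 2.77 CPM with vehicle. Its adjusted p in DESeq2 was 6.90e-06. Pdk1, which restrains pyruvate oxidation, had 42.7 and 25.4 CPM with DMSO and 15.5 and 16.0 CPM with BI6727. Cbr2, a carbonyl reductase, had 38.4 and 26.6 CPM with DMSO and 14.3 and 13.6 CPM with BI6727. In all 3 the groups were apart, DMSO replicate 1 was the higher DMSO library, and the fold against DMSO replicate 2 alone stayed below 2. The other genes on the DESeq2 list were Gm12666, with 2.67 and 4.67 CPM with DMSO and 0.330 and 0.163 CPM with BI6727 and 52.4% of its 50-base windows in other transcripts, and 4930447F24Rik, with 9.43 and 8.21 CPM against 4.01 and 4.33 CPM.

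**Figure D3:**
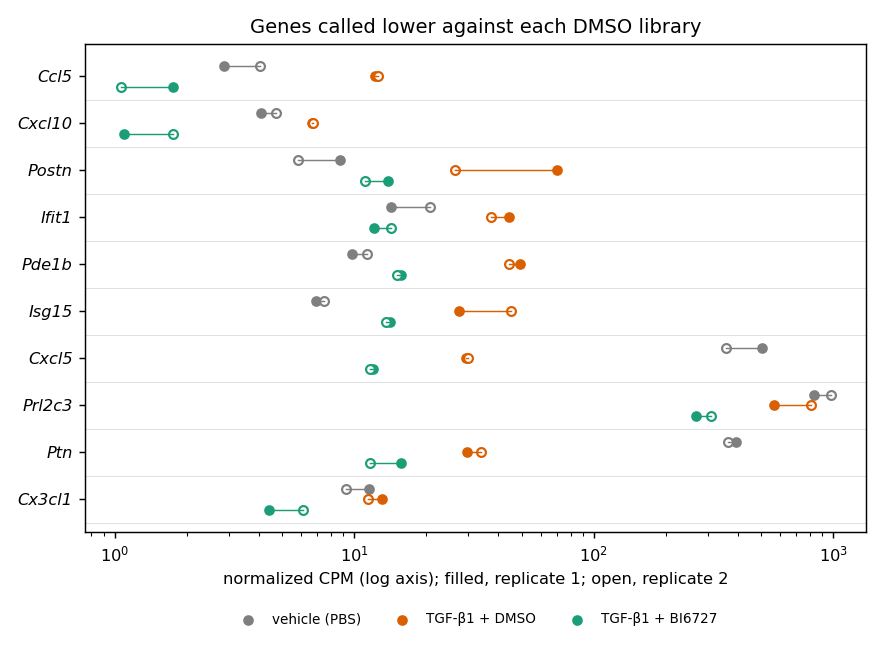
Normalized CPM (x axis, log scale) in each of the 6 libraries for 10 genes called lower against each DMSO library, 1 row a gene, with filled points for replicate 1, open points for replicate 2 and a line joining the pair. Both BI6727 points lie left of both DMSO points in each row, and their place relative to vehicle differs from gene to gene.

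Relative to vehicle, the 10 genes described above stood in different orders. Both BI6727 libraries were below both vehicle libraries in 7 of them and above both in Isg15, Pde1b and Postn. Both DMSO libraries were above vehicle in 6 (Ccl5, Cxcl10, Ifit1, Isg15, Pde1b and Postn), below it in Cxcl5, Prl2c3 and Ptn, and overlapped it in Cx3cl1. The vehicle group lacked DMSO as well as TGF-β1, so those parts of the difference cannot be told apart.

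Scarce genes with large gaps included several secreted or signaling products. Edn1, the vasoconstrictor endothelin-1, had 4.05 and 4.01 CPM with DMSO and 1.15 and 1.51 CPM with BI6727, beside 0.252 and 0.179 CPM with vehicle. Svep1, an extracellular matrix adhesion protein, had 1.95 and 1.32 CPM with DMSO and 0.440 and 0.449 CPM with BI6727. Htatip2 had 2.10 and 2.88 CPM with DMSO and 0.824 and 0.613 CPM with BI6727. Efr3b and Ip6k3 were at or below 2.38 CPM with DMSO and at or below 0.613 CPM with BI6727. None of these 5 passed edgeR's adjusted threshold on both DMSO libraries.

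Acta2 (chr19:34241090-34255336), the myofibroblast marker, had 470 and 464 CPM with DMSO and 344 and 322 CPM with BI6727, beside 89.3 and 98.5 CPM with vehicle. The BI6727 libraries lay below both DMSO libraries and far above vehicle. The log2 fold change was -0.49 (SE 0.11), with an adjusted p from edgeR of 0.469 on both DMSO libraries. DMSO replicates 1 and 2 were 1.41-fold and 1.40-fold above the BI6727 mean, which stayed under the fold threshold. Members of the contractile list went both ways. Of 31 genes of the contractile and actin cytoskeleton tested, 13 were apart lower (41.9%) and 6 higher (19.4%), beside 17.4% and 17.2% of all genes. The unadjusted p was below 0.05 in 4 on the lower side and 1 on the higher, beside 4.20% and 2.36% of all genes. The median log2 fold change of the list was 0.02, or -0.10 and 0.01 against DMSO replicates 1 and 2. Des and Cnn1, 2 further muscle genes, were below 2 CPM in all 4 libraries.

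Ccn2, the connective tissue growth factor and a target of YAP and TEAD as well as of TGF-β1, had 380 and 411 CPM with DMSO and 252 and 236 CPM with BI6727. Its log2 fold change of -0.70 had an adjusted p of 0.125 from edgeR and 0.000169 from DESeq2, and other genes overlap 23.2% of its exonic length. F3, tissue factor, had 45.0 and 56.4 CPM with DMSO and 32.2 and 31.2 CPM with BI6727. Of the 20 YAP and TEAD targets tested, 7 were apart lower and 0 higher, beside 17.4% and 17.2% of all genes. The unadjusted p was below 0.05 in 6 of the 20 on the lower side and in 0 on the higher, beside 4.20% and 2.36%. However, the median log2 fold change of the list was 0.00, or -0.11 and 0.01 against DMSO replicates 1 and 2. Of 30 genes of TGF-β, activin and BMP signaling, 5 were apart lower and 6 higher. The receptor Acvrl1 (ALK1) had 2.62 and 3.68 CPM with DMSO and 5.66 and 5.27 CPM with BI6727.

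Collagens and other matrix genes had lower values with BI6727 mainly against DMSO replicate 1. Of 21 collagens tested, 9 were apart lower and 1 higher, beside 17.4% and 17.2% of all genes. On the lower side, 8 had an unadjusted p below 0.05, beside 4.20% of all genes. The median log2 fold change of the 21 collagens was -0.28 on both DMSO libraries, -0.59 against DMSO replicate 1 and 0.04 against DMSO replicate 2. With length offsets, 12 were apart lower and 0 higher, beside 3518 and 3296 of all 17936 genes tested. The medians with length offsets were -0.48 and -0.11, so the sign against DMSO replicate 2 turned and the split remained. Col1a1, the main fibrillar collagen chain, had 847 and 438 CPM with DMSO and 406 and 411 CPM with BI6727, so that the DMSO libraries were 2.07-fold and 1.07-fold above the BI6727 mean. Col5a2 had 287 and 193 CPM with DMSO and 154 and 148 CPM with BI6727, and Col8a1 had 73.8 and 60.0 CPM against 45.6 and 44.2 CPM.

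Matrix glycoproteins and cross-linking enzymes showed the same split. Of 34 tested, 13 were apart lower and 6 higher, beside 17.4% and 17.2% of all genes, with a median log2 fold change of -0.41 against DMSO replicate 1 and 0.07 against DMSO replicate 2, or -0.39 and -0.01 with length offsets. Fbln5, an elastic fibre protein, had 136 and 98.5 CPM with DMSO and 71.2 and 67.8 CPM with BI6727, and its adjusted p was 0.357 from edgeR and 0.00372 in DESeq2. Pcolce, which enhances procollagen cleavage, had 244 and 222 CPM with DMSO and 159 and 165 CPM with BI6727. Tgfbi, an adhesion protein named for induction by TGF-β, had 7.05 and 3.73 CPM with DMSO and 2.42 and 2.29 CPM with BI6727. The vehicle libraries held 381 and 364 CPM of Fbln5, 556 and 477 CPM of Pcolce, and 11.2 and 11.7 CPM of Tgfbi. In these genes DMSO was thus below vehicle and BI6727 lower still, whereas Postn was higher with DMSO than with vehicle. Of 24 matrix proteases and inhibitors, 3 were apart lower and 5 higher, and Mmp9, a gelatinase, had 9.67 and 6.47 CPM with DMSO and 12.4 and 18.9 CPM with BI6727.

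Transcripts of the target kinase differed little. Plk1 (chr7:122159439-122169873) had 70.6 and 69.2 CPM with DMSO and 59.5 and 62.5 CPM with BI6727, both groups being below vehicle at 95.7 and 104 CPM. Its log2 fold change was -0.20 (SE 0.11, adjusted p = 0.792 from edgeR). Plk4, the kinase of centriole duplication, was also apart, with 56.7 and 54.5 CPM with DMSO and 50.8 and 47.1 CPM with BI6727. Plk2 and Plk3, stress-responsive kinases, overlapped between groups, with log2 fold changes of -0.15 and 0.04, and Plk5 did not reach 10 counts. An inhibitor acts on the protein, so these transcripts do not check the treatment.

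Of 48 genes of G2/M and mitosis, 20 were apart lower and 1 higher, beside 17.4% and 17.2% of all genes, but the differences were small. Their median log2 fold change was -0.13, or -0.14 and -0.08 against DMSO replicates 1 and 2. The unadjusted p was below 0.05 in 7 of the 48 on the lower side and in 0 on the higher. Of all genes, 4.20% and 2.36% were below it. Pttg1, securin, had 71.0 and 83.7 CPM with DMSO and 53.2 and 47.6 CPM with BI6727. Nusap1, a spindle protein, had 83.7 and 96.9 CPM with DMSO and 61.9 and 63.3 CPM with BI6727. Cdc25b, the phosphatase that activates CDK1, had 101 and 89.1 CPM with DMSO and 65.9 and 68.3 CPM with BI6727. Ccna2, cyclin A2, had 169 and 170 CPM with DMSO and 135 and 131 CPM with BI6727. In all 4 genes the groups were apart, with folds below 2.

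Of 45 DNA replication genes, 13 were apart lower and 3 higher, beside 17.4% and 17.2% of all genes, with a median log2 fold change of -0.07. Of 31 p53 targets and CDK inhibitors, 5 were apart lower (16.1%) and 10 higher (32.3%), and the median was 0.00. Mdm2, the p53 ubiquitin ligase and a p53 target, had 491 and 530 CPM with DMSO and 560 and 616 CPM with BI6727. Of 50 replication-dependent histone genes tested, 11 were apart lower and 7 higher, and only 12 of them had a mean of at least 1 CPM.

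MAP kinase signaling relays growth factor signals to the nucleus. Of 37 ERK output and immediate early genes, 9 were apart lower and 8 higher, beside 17.4% and 17.2% of all genes, with a median log2 fold change of -0.04. Egr2, an immediate early transcription factor, had 26.1 and 20.6 CPM with DMSO and 13.5 and 16.2 CPM with BI6727. Of 27 genes encoding RAS, RAF, MEK and MAP kinases, 5 were apart lower and 7 higher, with a median of 0.00. Mapk8, encoding JNK1, had 25.2 and 27.2 CPM with DMSO and 34.1 and 37.5 CPM with BI6727. Phosphorylation is not measured by RNA-seq, so these counts concern transcripts only.

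Of the 7 pentose phosphate pathway genes, 2 were apart lower and 2 higher, beside 17.4% and 17.2% of all genes, and the median log2 fold change was -0.02. Pgd, its second dehydrogenase, had 236 and 247 CPM with DMSO and 305 and 303 CPM with BI6727. Pgls, the lactonase before it, had 131 and 190 CPM with DMSO and 131 and 112 CPM with BI6727, and other genes overlap 20.6% of its exonic length. Of 21 complement and coagulation genes, 7 were apart lower and 4 higher. Of 32 lysosomal genes, 3 were apart lower (9.38%) and 13 higher (40.6%), with a median log2 fold change of 0.10. Psap, the precursor of the saposins, had 2536 and 2284 CPM with DMSO and 2904 and 2958 CPM with BI6727, and Ctsb, the protease cathepsin B, had 1057 and 1001 CPM against 1242 and 1225 CPM.

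Metabolic and stress lists had small shifts. The glycolysis and hypoxia list covered 28 gene rows, since the symbol Aldoa stands on 2 of them. Of these, 14 were apart lower and 5 higher, beside 17.4% and 17.2% of all genes, and the median log2 fold change was -0.14. On the lower side, 8 of the 28 had an unadjusted p below 0.05, beside 4.20% of all genes. Ankrd37, a hypoxia-induced gene, had 3.86 and 3.12 CPM with DMSO and 1.26 and 1.14 CPM with BI6727, with 26.4% of its exons overlapped by other genes. Bnip3, a mitophagy receptor, had 33.2 and 27.5 CPM with DMSO and 16.7 and 18.4 CPM with BI6727, and 47.2% of its 50-base windows occur in other transcripts.

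Of 31 genes of ATF4 and amino acid metabolism, 12 were apart lower and 3 higher, beside 17.4% and 17.2% of all genes, with a median log2 fold change of -0.20 that was -0.02 against DMSO replicate 1 and -0.32 against DMSO replicate 2. Trib3, a stress-induced pseudokinase, had 30.6 and 42.8 CPM with DMSO and 23.6 and 23.9 CPM with BI6727. Slc7a5, an amino acid transporter, had 47.7 and 58.7 CPM with DMSO and 37.6 and 33.7 CPM with BI6727. Of 31 cholesterol and fatty acid synthesis genes, 13 were apart lower and 4 higher, including Pmvk, a mevalonate pathway kinase, at 26.1 and 38.9 CPM with DMSO and 18.7 and 20.6 CPM with BI6727. Among 15 NRF2 and antioxidant genes, 1 was apart lower (6.67%) and 6 higher (40.0%). Hmox1, heme oxygenase 1, had 137 and 156 CPM with DMSO and 199 and 215 CPM with BI6727, a log2 fold change of 0.50 (SE 0.13, adjusted p = 0.559 from edgeR). Of 24 ER chaperone and unfolded protein response genes, 4 were apart lower and 6 higher, of 11 genes for BET proteins and P-TEFb 1 lower and 3 higher, and of 8 drug efflux transporters 3 lower and 2 higher.

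Lists of short, abundant genes took opposite signs against the DMSO libraries. The median log2 fold change of the 85 cytosolic ribosomal protein genes was 0.17 against DMSO replicate 1 and -0.41 against DMSO replicate 2. For 85 nuclear genes of oxidative phosphorylation the medians were 0.21 and -0.30, and for the 13 mitochondrial-encoded mRNAs 0.51 and -0.30. With length offsets the signs still differed. The medians were then 0.10 and -0.26 for ribosomal protein genes, 0.13 and -0.19 for oxidative phosphorylation, and 0.42 and -0.10 for mitochondrial-encoded mRNAs. Mitochondrial mRNAs took 3.24% and 5.29% of counts with DMSO and 4.27% and 4.55% with BI6727, which lay between them. No direction with BI6727 can be given for these 3 lists.

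**Figure D4:**
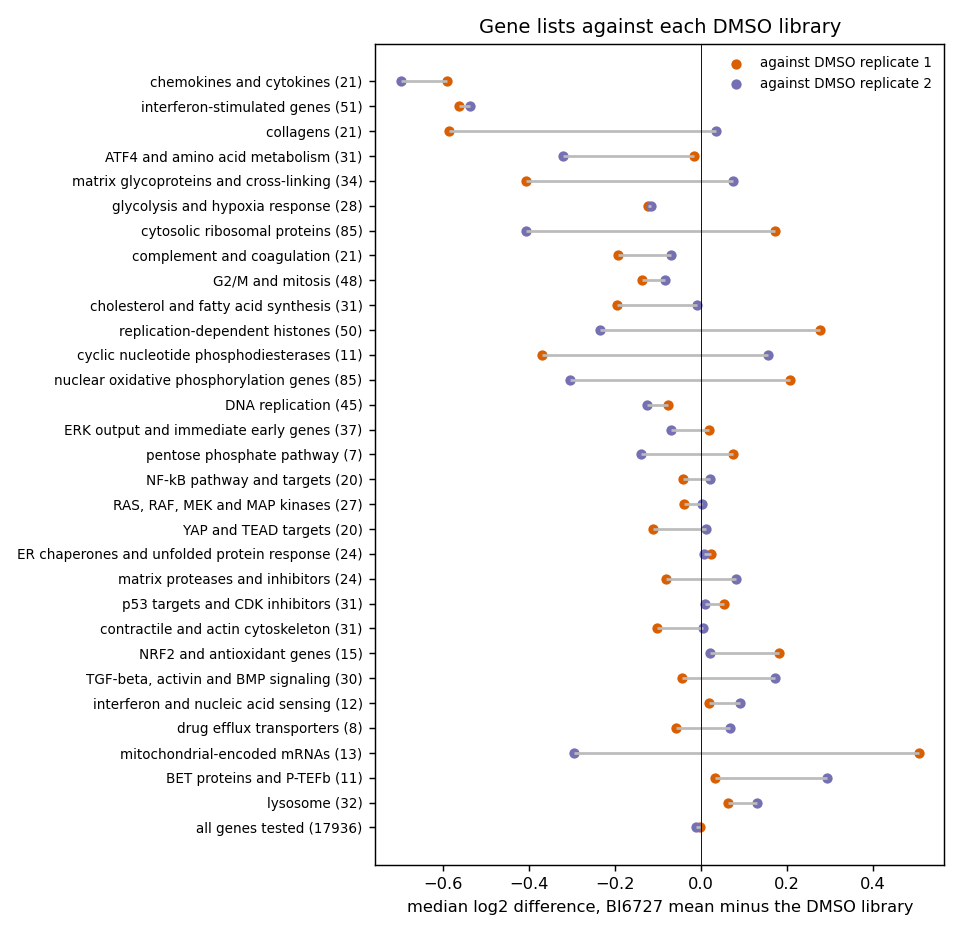
Median log2 fold change of each gene list (x axis) with BI6727 against DMSO replicate 1 and against DMSO replicate 2, 1 row a list with its number of tested genes in brackets and a line joining both medians. The chemokine and interferon-stimulated lists lie between -0.70 and -0.54 against each DMSO library, while the ribosomal and mitochondrial lists lie on opposite sides of 0.

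Among genes with higher values in the BI6727 libraries, those with the largest gaps were scarce transcripts, and none passed the test on both DMSO libraries. Cd53, a tetraspanin of leukocytes, had the largest gap, with 14 and 13 counts (0.667 and 0.614 CPM) with DMSO and 43 and 60 counts (2.36 and 2.45 CPM) with BI6727. Its log2 fold change was 1.90 (SE 0.36, adjusted p = 0.320 from edgeR). The summed leukocyte markers given above overlapped between the groups, while of the 6 tested 1 was apart lower and 3 were apart higher. Add2, a membrane skeleton protein, had 0.857 and 1.18 CPM with DMSO and 3.13 and 2.33 CPM with BI6727. Hist1h4i, a histone H4 gene, had 3.62 and 5.76 CPM with DMSO and 11.2 and 10.3 CPM with BI6727, with 28.9% of its 50-base windows shared with other transcripts, and was called higher against each DMSO library only with length offsets among the settings tried.

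Some of the other higher genes encode receptors and cytoskeletal proteins. Olr1, a scavenger receptor for oxidized lipoprotein, had 3.24 and 3.16 CPM with DMSO and 5.55 and 7.07 CPM with BI6727. Katnal2, a katanin-like microtubule-severing protein, had 2.38 and 3.16 CPM with DMSO and 5.66 and 5.80 CPM with BI6727. Kifc2, a kinesin motor, had 2.38 and 2.45 CPM with DMSO and 4.84 and 4.37 CPM with BI6727. The groups were apart in these 3 genes by less than 2-fold between the nearest libraries. Lrrc56, Clec11a, Ptgir, Mcam, Spata33 and Ccdc191 were between 0.614 and 1.61 CPM with DMSO and between 1.31 and 3.10 CPM with BI6727. Relative to vehicle, the higher genes stood in different orders. Both vehicle libraries were above both DMSO libraries in Cd53, Lrrc56, Clec11a, Ptgir, Katnal2 and Ccdc191. They were below both in Olr1, Add2 and Hist1h4i, and overlapped the DMSO libraries in Kifc2, Mcam and Spata33.

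**Figure D5:**
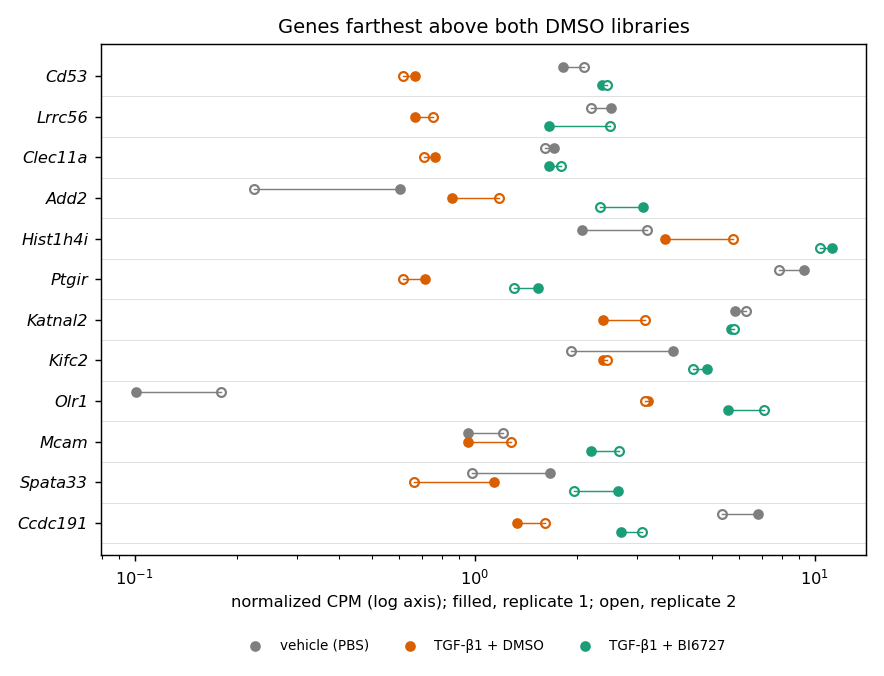
Normalized CPM (x axis, log scale) in each of the 6 libraries for the 12 higher genes with the largest gaps, 1 row a gene, with filled points for replicate 1, open points for replicate 2 and a line joining the pair. Both BI6727 points lie right of both DMSO points in each row, and no DMSO point exceeds 5.76 CPM.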

How the data were processed

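RNA was sequenced from 6 libraries of NIH/3T3 cells. The authors mapped reads to mm10 with Subjunc (Subread 1.6.4), assigned them to Gencode M20 genes by featureCounts, and deposited raw counts per gene. Their processing notes also name DESeq2 1.22.2 and R 3.6.1. The strand setting of the counting is not given in the sources used here, so overlapping genes may share reads.

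Groups and replicate numbers came from the sample labels, and 0 columns were left unused. Of 54752 gene identifiers, 54723 matched a symbol. Genes with at least 10 counts over the 6 libraries were scaled by TMM and tested by edgeR 4.0.16 (R 4.3.3) with its quasi-likelihood test in 1 fit of all 6 libraries, without covariates. Calls needed a Benjamini-Hochberg adjusted p below 0.01 and a fold change above 2. The fit was repeated without either DMSO library in turn. DESeq2 1.42.0 and offsets from a lowess of span 0.3 on gene length were alternatives, with other filters, the replicate number as a block, only 4 libraries and each replicate left out. Alternatives chosen after seeing the data were a crossed block, non-overlap counts without each library, and other settings for calls against each DMSO library alone. DESeq2 gave no adjusted p for 1739 genes. The script was tested on simulated data. Depth of 18362378 to 24452153 counts leaves few counts for genes near 1 CPM, where counting error is large.

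The gene lists and naming rule were chosen with earlier results of these data known. Named genes were those called by edgeR or DESeq2, the 12 lower and 12 higher genes with the largest gaps (the smallest of the 4 log2 ratios between a BI6727 and a DMSO library, prior count 1) among genes with at least 1 CPM and not predicted, the polo-like kinases, Acta2, and up to 4 members of each list. Large shares of 50-base windows that occur in other transcripts are given beside the gene. Replicate numbers were not used to pair the samples in the main fit. Over genes, same-numbered deviations of the DMSO and BI6727 libraries correlated at -0.134, or at -0.0916 with length offsets. With 2 pairs, this cannot show whether the numbers mark a shared batch. 1 gene that met the rule is not reported here.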

Additional observations from a re-analysis of the deposited data

How the results depend on the processing

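The count of genes lower with BI6727 (2) became 15 with DESeq2, 13 with length offsets, 41 with no filter and 754 at an unadjusted p below 0.05 with no fold minimum. It became 0 with the study's filter, with edgeR's filterByExpr, with only the 4 libraries and with the replicate block, and 18 with length offsets and the replicate block together. Leaving out 1 replicate gave 0 to 37, with 36 without DMSO replicate 1, 37 without DMSO replicate 2 and 0 without either BI6727 replicate. DESeq2's size factors and an adjusted p below 0.05 left 2. The count of higher genes (0) became 6 with no filter, 424 at an unadjusted p below 0.05 and 0 to 65 with a replicate left out, and was 0 with the replicate block. The replicate number is shared by 2 pairs, and crossing the pairing gave 2 lower and 0 higher genes. The adjusted p of Ccl5 ranged over the alternatives from 1.12e-13 to 1, and that of Pde1b from 2.16e-13 to 1. Among genes with at least 1 CPM, non-overlap by over 1.5-fold (103 lower, 39 higher) became 34 and 6 at a mean of at least 5 CPM. With a library left out it became 215 to 381 lower and 104 to 542 higher, and at any gap 3461 to 5438 lower (2278 with all) and 3397 to 5354 higher (2229 with all), as fewer libraries separate more easily. The 11 genes called lower against each DMSO library became 7 with the study's filter and 7 with DESeq2. Of 155 alternatives for the medians of 31 lists, 141 moved by less than the spread between replicates. Of 800 alternatives for 76 named genes, 744 kept direction and side of the threshold, 9 lost it, 46 gained it and 1 reversed, namely Plk3, which ran from -0.10 to 0.17 with a replicate left out and was below 0 without BI6727 replicate 2. The cause of these changes was not tested.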
